A study of Rattus norvegicus with 30 samples.

Results

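The response of cultured rat hepatocytes to 1000 uM clofibrate after 24 h was compared with solvent-treated cultures of the same age. The comparison takes 5 arrays of cells given 1000 uM clofibrate and 5 arrays of cells given 1% DMSO, chosen by their labelled treatment and time, out of 30 arrays in the series. The sample titles name DMSO for the control arrays only. The other 4 groups, also of 5 arrays, received 60 uM clofibrate for 24 h or DMSO, 60 uM or 1000 uM for 48 h. All groups used frozen hepatocytes of male Sprague Dawley rats, cultured with a Matrigel overlay and dosed on day 3, with no transgene and no other agent named. Each array measured RNA of 1 culture well, and the labels name separate wells but not separate animals, so a p-value here speaks of variation among culture wells. The cells were thawed and plated outside the animal, which limits them as a model of the liver.

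Clofibrate is a fibrate, a class of lipid-lowering drugs whose acid form activates the nuclear receptor PPAR-alpha. PPAR-alpha binds DNA together with a retinoid X receptor and raises genes of fatty acid uptake, activation and oxidation. In rat and mouse liver its activation also enlarges the peroxisome compartment, and activated PPAR-alpha is known to dampen transcription driven by NF-kB and AP-1 without binding their DNA sites itself.

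The labelled cell type was checked against marker lists. Albumin gave signals of 83157 to 94288 on the DMSO arrays and 72831 to 84817 on the 1000 uM arrays, and the hepatocyte factor Hnf4a gave 11058 to 13804 and 11800 to 12700. Of 13 measured hepatocyte markers, 1 rose and 8 fell, with a median log2 difference of -0.18 that turned to 0.05 under spike-in scaling, where 2 rose and 1 fell. Among markers of other liver cells, the macrophage markers Clec4f and Csf1r lay between 335 and 888, the endothelial marker Vwf between 36.3 and 145, and the bile duct keratin Krt19 between 64.3 and 260, the last 2 under the intensity filter. Not all such markers were dim: on the DMSO arrays the macrophage marker Cd14 read 15191 to 17306, the macrophage marker Lyz2 7211 to 7927 and the bile duct marker Epcam 9489 to 11004. Signals of different probe sets cannot be ranked against each other as amounts of RNA. Over 14 measured macrophage markers 1 rose and 1 fell, of 7 endothelial markers 0 changed, of 7 stellate cell markers 0 rose and 1 fell, of 4 bile duct markers 0 rose and 1 fell, and of 4 lymphoid markers 1 rose and 0 fell. The bile duct marker Epcam fell 1.36-fold, which did not pass under spike-in scaling (-0.21, adjusted p = 0.0916). In bulk RNA, fewer cells of a type and less RNA per cell cannot be told apart.

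The deposited values are MAS5 signals on a linear scale, and all differences below are on the log2 scale unless called a fold. Arrays within each group correlated at 0.972 to 0.978 over the tested probe sets, and DMSO with 1000 uM arrays at 0.949 to 0.956. Actin's signal ratio of 3' over 5' probe sets was 2.26 to 2.64 on the DMSO arrays and 2.39 to 2.72 on the 1000 uM arrays. The authors' scaling gave every array the same trimmed mean signal of 1501. Bacterial control transcripts, read by 12 probe sets, had a mean log2 signal of 10.36 to 10.59 on the DMSO arrays and 10.05 to 10.32 on the 1000 uM arrays, without overlap. Scaling the arrays to these controls moved the median difference of all tested genes from -0.06 to 0.18, while median centring put it at 0.00 and quantile normalization at -0.02. Whether the bacterial controls were added in equal amounts to each sample is not stated, and results under spike-in scaling depend on that.

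A wide set of genes changed. Of 10627 genes tested, 1420 were higher at 1000 uM (13.4% of genes) and 2182 were lower (20.5%) at an adjusted p under 0.05 by limma with Benjamini-Hochberg adjustment. Large changes were fewer and leaned upward: 193 genes rose (1.82%) and 152 fell (1.43%) by at least 2-fold, 32 rose and 9 fell by at least 4-fold, and 6 rose and 1 fell by at least 8-fold. The balance of small changes followed the scaling. Genes higher made up 39.4% of those passing with the signals as deposited, 53.3% under median centring, 43.2% under quantile normalization and 82.7% under spike-in scaling. Counts of list members below, with the signals as deposited, are to be read beside 13.4% higher and 20.5% lower over all genes.

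**Figure D1:**
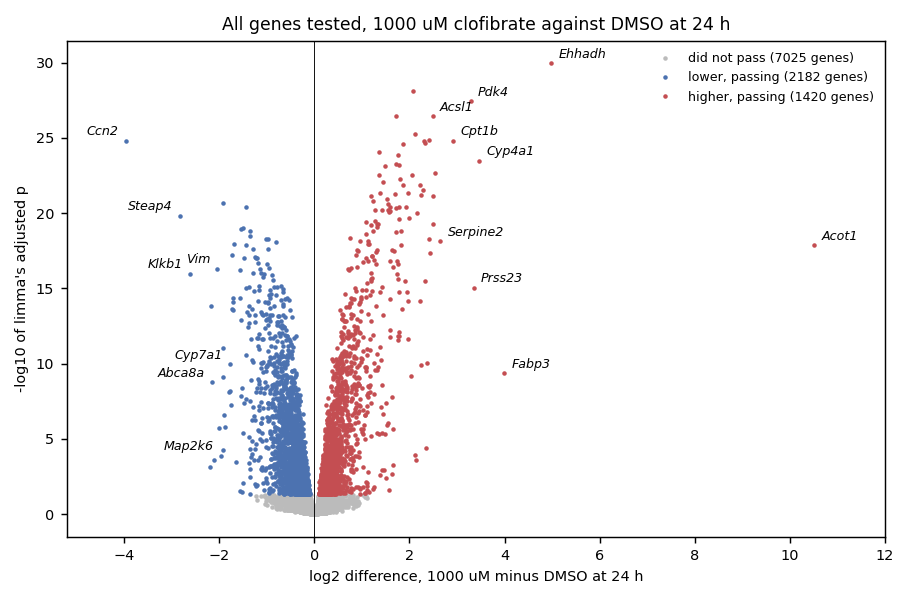
Log2 difference (x axis, 1000 uM minus DMSO at 24 h) against the negative log10 of limma's adjusted p (y axis) for 10627 genes, 1 point a gene, coloured by direction where the adjusted p was under 0.05. Acot1 and Ehhadh (4.98) lie farthest right and Ccn2 (-3.96) farthest left. The position of Acot1 is its fitted value, which has no exact size because its DMSO mean lay under the control floor.

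The farthest rise by the fitted difference was in a thioesterase, an enzyme that frees fatty acids from coenzyme A. Acot1, a cytosolic thioesterase that splits long-chain acyl-CoA, had signals of 92.3, 12.4, 9.80, 20.2 and 80.0 on the DMSO arrays and 42829, 38384, 41544, 41668 and 41160 on the 1000 uM arrays. Its DMSO mean lay under the floor set by the TrpnX control probe sets, so the rise is given as at least 618-fold (limma adjusted p = 1.36e-18). At 60 uM the same bound was 13.2-fold. Most other thioesterases rose too. Acot2, its mitochondrial relative, read 5768, 5985, 6146, 5769 and 6421 on the DMSO arrays and 33178, 30660, 33266, 30118 and 31717 on the treated ones, a difference of 2.40 ± 0.06 (SE, n = 5 + 5; limma adjusted p = 1.32e-25). Of 10 measured acyl-CoA thioesterases 9 rose and 0 fell, with a median difference of 1.76. Under the 3 other scalings that median was 1.74 to 1.99. Acot4 rose 4.74-fold, Acot3 3.74-fold and Acot12 3.36-fold.

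Peroxisomes shorten very long and branched fatty acids and pass the products on. Ehhadh, the bifunctional enzyme of the peroxisomal cycle, had signals of 1560, 1222, 1519, 1623 and 1600 with DMSO and 47733, 43565, 47503, 48139 and 48752 with 1000 uM. The groups were far apart, with a 31.5-fold rise (4.98 ± 0.08; limma adjusted p = 1.08e-30) and a mean of 8489 ± 644 (SD, n = 5) at 60 uM. Hacl1, which cleaves 2-hydroxy and branched acyl-CoA, rose 4.90-fold, and Crat, which moves short acyl groups to carnitine, rose 5.05-fold. Of 20 measured genes of peroxisomal beta-oxidation 18 rose and 2 fell, with a median of 1.22. The members that fell were Abcd4, a transporter now placed in lysosomes, at -0.44 and Acox2, the branched-chain oxidase of bile acid side chains, at -0.40. Under spike-in scaling 18 members rose and 0 fell.

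Genes that build and divide peroxisomes moved as well. Of 23 measured peroxins and membrane proteins 13 rose and 3 fell, with a median of 0.26, positive under each scaling. Pex11a, which drives peroxisome division, rose 2.87-fold from 9058 to 10270 over the DMSO arrays to 24599 to 30522 over the treated arrays. Lonp2, the peroxisomal Lon protease, rose 2.28-fold. Mpv17l, a membrane protein of the same list, went the other way, from 597, 826, 1007, 758 and 924 to 442, 426, 388, 366 and 286, a 2.15-fold fall (limma adjusted p = 1.35e-05).

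Fatty acids that stay in the cytosol are bound, oxidised at their far end or bound to coenzyme A. Cyp4a1, an omega-hydroxylase and a classical fibrate target, rose by 3.46 ± 0.09 (limma adjusted p = 3.32e-24), from 7735, 5566, 6410, 5647 and 6580 to 71718, 66669, 70753, 67878 and 73139. Cyp4a3 of the same cluster rose 5.66-fold. Of 9 measured members of the Cyp4 family 2 rose and 3 fell (0 fell under spike-in scaling), and Cyp4f1 stood at -0.35 (adjusted p = 0.00146), which spike-in scaling reduced to -0.12 (adjusted p = 0.454). Fabp1, the abundant liver fatty acid binding protein, read 7942, 7798, 7595, 7745 and 7687 with DMSO and 41670, 34731, 39690, 39742 and 36043 at 1000 uM, 4.94-fold higher (limma adjusted p = 1.54e-25). Fabp3, the heart form, started near the lower end of the scale, at 102, 196, 92.8, 325 and 190, and reached 2717, 2395, 2984, 2485 and 2455. That difference was 4.00 ± 0.39, with all treated arrays above all DMSO arrays. Acsl1, which attaches coenzyme A to long-chain fatty acids, rose 5.63-fold (2.49, with a dimmer probe set at 3.96), Acsl3 rose 3.20-fold, and the uptake receptor Cd36 rose 3.93-fold. Over the 19 measured genes of fatty acid activation and uptake 10 rose and 2 fell.

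Genes of entry into mitochondria mostly rose. Cpt1b, the muscle form of the carnitine palmitoyltransferase that commits acyl-CoA to mitochondria, had signals of 830, 1095, 918, 975 and 911 with DMSO and 6882, 7102, 7093, 7460 and 7105 at 1000 uM, 7.57-fold higher (limma adjusted p = 1.54e-25). Cpt1a, the liver form, rose 3.42-fold (1.77, with a dimmer probe set at 0.86). The carnitine importer Slc22a5 rose 3.92-fold and the carnitine-acylcarnitine exchanger Slc25a20 rose 2.45-fold, and of 11 measured genes of the carnitine shuttle 7 rose and 1 fell, with a median of 1.29. Inside mitochondria, 14 of 17 beta-oxidation genes rose and 1 fell, with a median of 0.85. Acadm, the medium-chain dehydrogenase, rose 3.44-fold, Hadha of the trifunctional protein 2.67-fold and the thiolase Acaa2 2.49-fold (1.31, with a dimmer probe set at 2.17). Eci1 rose 2.49-fold by its brightest probe set, while a dimmer set of the gene did not pass (0.91, limma adjusted p = 0.153). The member that fell was Echs1, the short-chain enoyl-CoA hydratase, from 18855 to 20017 over the DMSO arrays to 13912 to 15908, a 1.29-fold fall that did not pass under spike-in scaling (-0.13, adjusted p = 0.299).

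**Figure D2:**
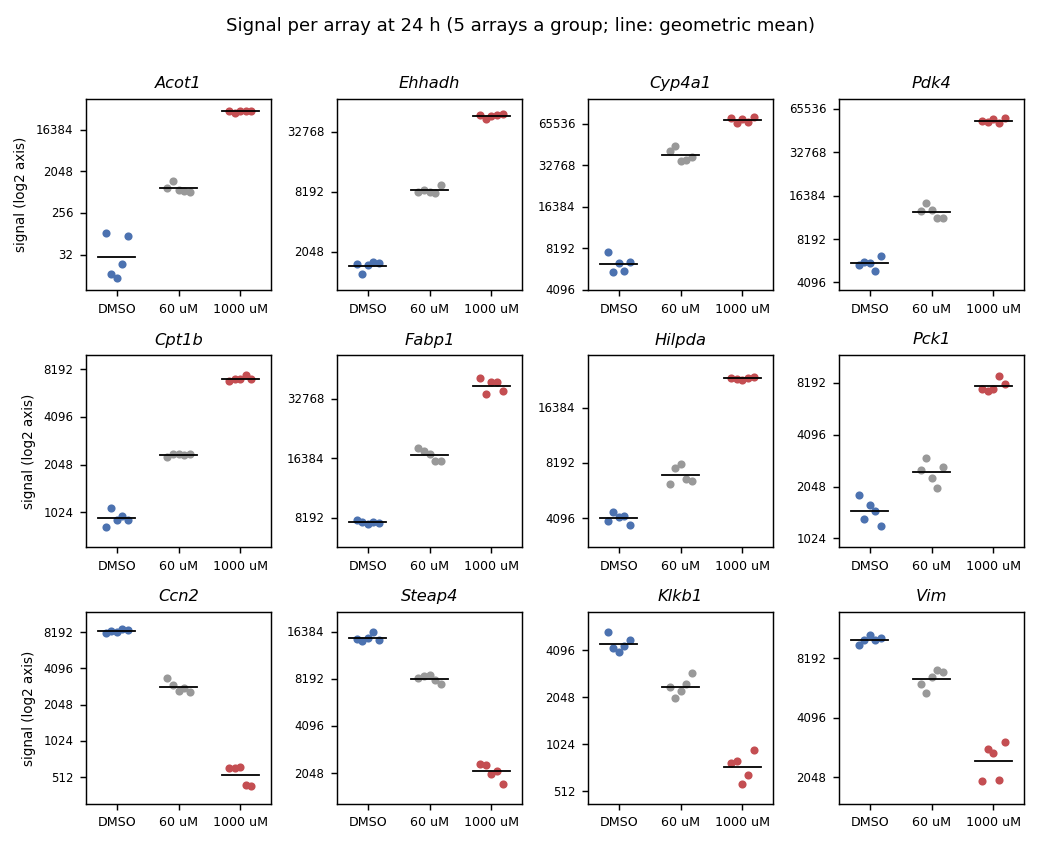
Signal of each array at 24 h on a log2 axis for 12 genes, with 5 points a group for DMSO, 60 uM and 1000 uM and a line at the geometric mean. In each panel the 5 arrays at 1000 uM lie beyond all 5 DMSO arrays, and the 60 uM mean lies between the other means.

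PPAR-alpha and its partner are known to bind a direct repeat with a 1-base spacer (DR1), so promoters were read for it. The window was 250 bases before to 50 after each RefSeq start on GRCr8, and the letters searched were the half-site AGGNCA, 1 spacer base and AGGNCA again, on both strands, where N is any base. Each gene with a promoter was counted once, by its best-matching start, so a gene with more starts had more chances to match. The motif stood in 4 of 155 genes (2.58%) at least 2-fold higher and in 0 of 112 at least 2-fold lower. It stood in 36 of 8919 (0.404%) of all tested genes. Of the 33469 single promoters, a different unit, 0.415% held it. With up to 1 mismatch in the 10 fixed letters it stood in 18 of 155 (11.6%), 3 of 112 (2.68%) and 376 of 8919 (4.22%). Acot1, Ehhadh, Cyp4a1, Pdk4 and Cpt1b, which are among the largest rises, were not among the 18 genes. A match describes letters in this window and no binding was measured. The 4 exact matches among the genes at least 2-fold higher and 4 lipid genes with 1 mismatch are shown as examples of the motif's setting, read along the gene's strand with the match in capitals.
Fabp1, chr4:104749253-104749285, plus strand, exact: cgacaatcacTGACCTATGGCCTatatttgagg
Gys2, chr4:177137294-177137326, minus strand, exact: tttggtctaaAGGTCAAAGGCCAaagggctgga
Tinagl1, chr5:147807269-147807301, minus strand, exact: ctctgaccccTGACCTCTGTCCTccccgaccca
Gmnn, chr17:40729662-40729694, plus strand, exact: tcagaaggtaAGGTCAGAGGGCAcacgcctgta
Crat, chr3:34087300-34087332, minus strand, 1 mismatch: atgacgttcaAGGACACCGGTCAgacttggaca
Acot12, chr2:24721844-24721876, plus strand, 1 mismatch: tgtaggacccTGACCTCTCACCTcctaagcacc
G0s2, chr13:107336037-107336069, minus strand, 1 mismatch: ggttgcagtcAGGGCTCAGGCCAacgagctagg
Acat1, chr8:62905123-62905155, minus strand, 1 mismatch: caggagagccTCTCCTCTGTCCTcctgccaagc
The Fabp1 match begins at position -77 from its start and the Gys2 match at position -80. Fabp1 rose 4.94-fold, and Gys2, the liver glycogen synthase, rose 2.54-fold. Tinagl1, a secreted matrix protein, rose 2.20-fold. Gmnn, a brake on DNA replication licensing, had overlapping arrays of 428, 721, 279, 515 and 855 against 1479, 1345, 925, 1216 and 657 (1.06 ± 0.39; limma adjusted p = 0.0397). The Gmnn call was lost without any of 6 single arrays, with values from 0.83 without replicate 3 of DMSO to 1.05 without replicate 4 of DMSO. In the other lipid genes Crat rose 5.05-fold, Acot12 3.36-fold, G0s2 3.54-fold and Acat1, a mitochondrial thiolase of ketone metabolism, 3.49-fold.

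Genes of lipid droplets and of lipolysis rose together with their inhibitors. Hilpda, a droplet protein that inhibits the lipase Pnpla2, had signals of 3943, 4448, 4171, 4196 and 3748 with DMSO and 23984, 23433, 23363, 23890 and 24114 at 1000 uM, 5.80-fold higher (limma adjusted p = 2.10e-23). G0s2, another inhibitor of the same lipase, rose 3.54-fold, while Pnpla2 itself rose 3.27-fold and the monoglyceride lipase Mgll 3.28-fold. The droplet coat gene Plin2 was already at 46966 to 54102 with DMSO and rose 1.38-fold (0.47, with a dimmer probe set at 1.16). Lipa, the lysosomal acid lipase, rose 2.20-fold. Of 23 measured genes of the list 16 rose and 1 fell, with a median of 0.79. Angptl4, a secreted inhibitor of lipoprotein lipase, rose 4.15-fold and the related Angptl8 rose 2.17-fold.

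Most desaturases and elongases rose, while genes of phospholipid synthesis and of lipid building from glucose moved both ways. Elovl6, which extends palmitate, rose 3.43-fold, and Fads1, a desaturase of polyunsaturated fatty acids, rose 2.39-fold. Of 14 measured desaturases and elongases 10 rose and 2 fell, with a median of 0.35. Lpcat3, which puts polyunsaturated chains into phospholipids, rose from 6635, 5726, 6968, 7216 and 8044 to 20731, 20755, 20737, 20935 and 24462, and the choline kinase Chkb rose 2.36-fold. Over the 26 measured genes of phospholipid synthesis 9 rose and 6 fell, with a median of -0.01, against 11 and 2 with a median of 0.23 under spike-in scaling. By contrast, of 15 measured genes of de novo lipogenesis 3 rose and 7 fell, with a median of -0.11 that turned to 0.13 under spike-in scaling, where 4 rose and 5 fell. Acaca, the cytosolic acetyl-CoA carboxylase, fell 1.60-fold, though a dimmer probe set of the gene stood at 0.02 (limma adjusted p = 0.944). Pklr, liver pyruvate kinase, fell 1.95-fold from 2987 to 3650 over the DMSO arrays to 1590 to 1918 (-0.96). A dimmer probe set of Pklr stood lower, at -3.52 (limma adjusted p = 8.07e-13).

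Genes of pyruvate use moved both ways. Pdk4, the kinase that switches off pyruvate dehydrogenase, read 5425, 5706, 5547, 4907 and 6289 with DMSO and 53971, 52740, 55169, 52233 and 56675 at 1000 uM, a 9.74-fold rise (3.28; limma adjusted p = 3.44e-28), with a dimmer probe set at 2.42. Pdp2, a phosphatase that reverses this inhibition, rose 2.16-fold. Pc, which makes oxaloacetate from pyruvate, rose 2.14-fold and Mpc2, a subunit of the mitochondrial pyruvate carrier, rose 2.14-fold. Of 13 measured genes of pyruvate dehydrogenase and its control 7 rose and 2 fell, with a median of 0.13. The members that fell were the phosphatase Pdp1 (-0.51) and the carrier subunit Mpc1 (-0.30). Under spike-in scaling 8 rose and 0 fell, with Pdp1 at -0.28 (adjusted p = 0.130) and Mpc1 at -0.064 (adjusted p = 0.566). Me1, the cytosolic malic enzyme, rose 2.48-fold. In the tricarboxylic acid cycle 14 of 21 measured genes rose and 1 fell, with a median of 0.23. The gene that fell was Idh2, the mitochondrial NADP-dependent isocitrate dehydrogenase, from 10855, 10305, 9373, 10367 and 10462 to 5333, 4906, 5127, 5169 and 5338, with no overlap.

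Glycerol, released by lipolysis, has its own handling genes. Gpd2, the mitochondrial glycerol phosphate dehydrogenase, rose 5.67-fold, from 799, 672, 864, 822 and 880 to 4547, 4278, 4796, 4604 and 4568. The glycerol kinase Gk rose 4.44-fold and the glycerol channel Aqp7 3.81-fold. Pck1, which makes phosphoenolpyruvate for gluconeogenesis and glyceroneogenesis, had signals of 1820, 1322, 1592, 1480 and 1209 with DMSO and 7522, 7404, 7514, 8939 and 8085 at 1000 uM, 5.36-fold higher (limma adjusted p = 4.55e-18). Over 16 measured genes of gluconeogenesis and glycogen 8 rose and 4 fell, with a median of 0.15. Ucp2, an inner-membrane carrier, rose 4.42-fold from 91.3, 348, 280, 151 and 268 to 745, 906, 1196, 920 and 819, with no overlap.

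Differences in the respiratory chain were small at this time. Of 63 measured oxidative phosphorylation genes 17 rose and 0 fell, with a median of 0.08, and 50 rose under spike-in scaling. Ndufs7, a complex I subunit, was the member that rose farthest by difference, at 0.36. Of 28 mitochondrial import genes 17 rose and 2 fell, with a median of 0.23 (23 and 0 under spike-in scaling). Among mitochondrial carriers, Slc25a42, which imports coenzyme A, rose 3.32-fold, and Slc25a29, a carrier of basic amino acids, fell 3.25-fold from 4117, 5069, 4590, 4551 and 4485 to 1264, 1327, 1530, 1379 and 1517. Mrps18a stood out in the mitochondrial ribosome with a 1.97-fold rise, where 16 of 71 measured members rose and 2 fell (43 and 0 under spike-in scaling). Of 35 measured proteasome genes 19 rose and 1 fell, by at most 0.32, with a median of 0.14 (31 and 0 under spike-in scaling). Cytosolic ribosomal proteins gave 0 higher and 1 lower of 41 measured, and 8 higher and 0 lower under spike-in scaling.

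**Figure D3:**
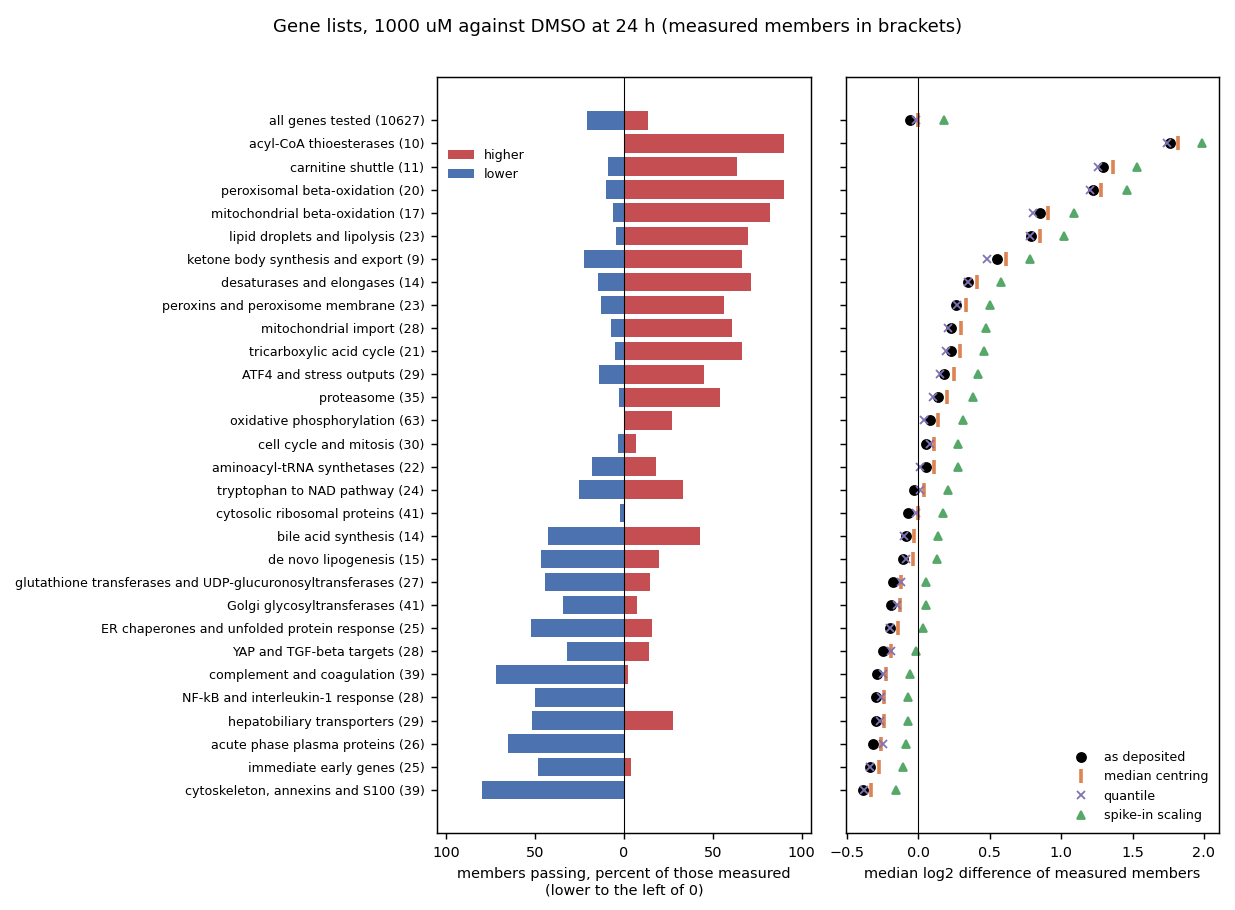
Gene lists ordered by their median change at 1000 uM and 24 h, with all tested genes on top. The left panel gives the percent of measured members that passed, higher to the right and lower to the left; the right panel gives the median log2 difference with the signals as deposited and under 3 other scalings. Thioesterases, the carnitine shuttle and both oxidation lists stand highest, and the lists with medians below 0 under all 4 scalings are the lowest 7 in the panel.

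Transcription factors and clock genes moved both ways. Ppara itself lay under the intensity filter and was not tested. Rxrg, a retinoid X receptor, rose from 2327, 2097, 2555, 2561 and 2390 to 6484, 6282, 6745, 6250 and 6601 (2.72-fold), while a dimmer probe set of it stood at 0.05 (limma adjusted p = 0.938). Nr1h4, the bile acid receptor FXR, rose 2.33-fold and Creb3l3, a membrane-bound liver factor of lipid metabolism, rose 2.61-fold. The clock genes Hlf and Nr1d1 rose 2.15-fold and 1.87-fold, and Per2 fell 1.74-fold. Cebpd, an acute-phase factor, fell 2.25-fold, from 1289, 1167, 1535, 1361 and 1037 to 507, 580, 537, 624 and 572 (-1.17, with a dimmer probe set at -2.08).

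The largest fall was in Ccn2 (CTGF), a secreted matrix protein and a target of the YAP coactivator. Its signals were 8058, 8329, 8192, 8642 and 8484 with DMSO and 607, 610, 616, 444 and 429 at 1000 uM, a 15.6-fold fall (-3.96 ± 0.10; limma adjusted p = 1.54e-25), with 2889 ± 309 (SD, n = 5) at 60 uM. The related Ccn1 fell 2.92-fold. The YAP and TGF-beta list did not move as a block: of 28 measured members 4 rose and 9 fell, with a median of -0.25 that shrank to -0.02 under spike-in scaling. Serpine2, a protease inhibitor of that list, rose 6.26-fold, from 682, 405, 760, 673 and 793 to 3860, 3834, 3892, 3983 and 4700. The cross-linking enzyme Tgm2 rose 3.95-fold.

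Cytoskeletal genes went down broadly. Vim, the intermediate filament protein vimentin, fell 4.11-fold, from 9510, 10161, 10718, 10162 and 10371 to 1969, 2850, 2706, 1997 and 3080 (limma adjusted p = 5.03e-17). Flna, an actin cross-linker, fell 2.18-fold and S100a13, a calcium-binding protein, fell 2.15-fold. Of 39 measured genes of the cytoskeleton, annexins and S100 proteins 0 rose and 31 fell, with a median of -0.39 that stayed below 0 under each scaling, at -0.16 under spike-in scaling. Under that scaling 14 members fell and 1 rose. Vimentin is also abundant in cells other than hepatocytes. The summed signal of 7 stellate cell markers was 3947 to 5428 with DMSO and 4010 to 4512 at 1000 uM, with Acta2 lower (1160 to 1578 against 581 to 1026) and Pdgfrb, Lrat and Col1a2 under the filter. The sum over 7 endothelial markers was 3513 to 3923 and 3573 to 4172, with Vwf and Stab1 under the filter. The part of these cells in the fall was not tested.

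Plasma proteins made by hepatocytes were mostly lower. Klkb1, plasma prekallikrein, fell 6.14-fold, from 5341, 4236, 3976, 4361 and 4762 to 780, 797, 571, 649 and 934 (limma adjusted p = 1.06e-16). The complement protease C1s fell 2.28-fold and coagulation factor F5 fell 2.25-fold. Of 39 measured complement and coagulation genes 1 rose and 28 fell, with a median of -0.29 (-0.06 under spike-in scaling, where 3 rose and 8 fell). Of 26 acute phase genes 0 rose and 17 fell, with a median of -0.32 (-0.09 under spike-in scaling, where 2 rose and 6 fell). Lbp, which carries bacterial lipopolysaccharide, fell 1.85-fold and Crp, C-reactive protein, fell 1.77-fold. Apoa5, an apolipoprotein that lowers plasma triglyceride, fell 2.45-fold, from 10051 to 11472 over the DMSO arrays to 4245 to 5094 over the treated arrays.

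Part of the inflammatory and immediate early genes fell. Steap4, a metalloreductase induced by inflammatory cytokines, went from 14747, 14243, 14904, 16317 and 14522 to 2352, 2295, 2027, 2125 and 1750, a 7.11-fold fall (limma adjusted p = 1.51e-20). The chemokine Cxcl1 fell 3.77-fold, the NF-kB brake Tnfaip3 1.93-fold, and the receptor Il6r 2.10-fold. Il1r1, the signalling interleukin-1 receptor, fell 1.70-fold, while its dimmer probe set stood at -0.30 (limma adjusted p = 0.133). Of 28 measured genes of the NF-kB and interleukin-1 response 0 rose and 14 fell, with a median of -0.30 (-0.07 under spike-in scaling, where 2 rose and 5 fell). Among immediate early genes, which answer growth signals within minutes, 1 of 25 rose and 12 fell, with a median of -0.34 (-0.11 under spike-in scaling, where 2 rose and 9 fell). Ier3, Klf6 and Egr1 of this list fell 2.55-fold, 2.54-fold and 1.97-fold. Of 14 macrophage markers, Lyz2 (lysozyme) fell 1.51-fold and Mrc1 rose, from 454 to 738 over the DMSO arrays to 752 to 899. The other members, Clec4f and Csf1r among them, did not pass. The list's summed signal was 31503 to 32905 with DMSO and 27516 to 29524 at 1000 uM. That sum mostly reflects its bright members Cd14 (15191 to 17306 with DMSO) and Lyz2 (7211 to 7927 with DMSO). The part of such cells in the falls was not tested.

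Genes of the cell surface and the secretory path moved both ways, and their balance turned with the scaling. Of 36 measured genes of cell surface and secreted signalling 5 rose and 15 fell, with a median of -0.23, and under spike-in scaling 7 rose and 7 fell, with a median of 0.01. Of 53 genes of secretory translocation and coat proteins 7 rose and 16 fell, with a median of -0.09, against 18 and 0 with a median of 0.14 under spike-in scaling. Over all genes 13.4% rose and 20.5% fell with the signals as deposited, so the rises here lie near that share. Egfr, the epidermal growth factor receptor, fell 2.34-fold, from 9371, 7852, 7477, 7816 and 7928 to 3507, 3700, 3487, 3116 and 3468, although of 2 other probe sets 1 fell by 1.57 and the other stood at 0.01 (limma adjusted p = 0.965). The sialyltransferase St6gal1 fell 1.84-fold. The galactosyltransferase B4galt5 fell 3.34-fold by its brightest probe set, with a dimmer set at 0.05 (limma adjusted p = 0.918). Of 41 measured Golgi glycosyltransferases 3 rose and 14 fell, with a median of -0.19 that turned to 0.05 under spike-in scaling, where 7 rose and 8 fell. Of 25 genes of ER chaperones and the unfolded protein response 4 rose and 13 fell, with a median of -0.20 that turned to 0.03 under spike-in scaling, where 10 rose and 5 fell. The chaperone Hsp90b1 fell 1.62-fold and the disulfide oxidase Ero1a rose 1.70-fold. Npy, neuropeptide Y, fell 2.38-fold, Sesn1, a stress-induced regulator of growth, fell 3.25-fold (-1.70, with a dimmer probe set at -1.08), and Lurap1l fell 3.78-fold, with DMSO arrays at 20643 to 21699 and treated arrays at 4872 to 6174.

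Bile acid genes moved both ways. Cyp7a1, the rate-limiting enzyme of the classical path, had signals of 1832, 1226, 1158, 1180 and 1351 with DMSO and 332, 299, 464, 430 and 443 at 1000 uM, 3.43-fold lower (limma adjusted p = 1.07e-10). Cyp27a1, which starts side-chain oxidation, fell 2.02-fold. Hsd17b4, a bifunctional enzyme of peroxisomal side-chain shortening, rose 2.37-fold. Of 14 measured genes of bile acid synthesis 6 rose and 6 fell (6 and 4 under spike-in scaling). Among 29 hepatobiliary transporters 8 rose and 15 fell, with a median of -0.30 (-0.07 under spike-in scaling, where 10 rose and 8 fell). Abcb4, which moves phosphatidylcholine into bile, fell 2.31-fold and the lipid transporter Abca8a fell 4.45-fold, from 1313, 1170, 1488, 1849 and 1480 to 365, 211, 198, 536 and 439. Abcg1, a sterol exporter, rose 2.68-fold by its brightest probe set, while of 2 other sets 1 rose by 0.72 and the other stood at 0.41 (limma adjusted p = 0.304).

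Drug-metabolising genes did not share a direction. Of 30 measured cytochromes P450 of families 1 to 3, 5 rose and 10 fell, beside 13.4% and 20.5% of all genes. Their median of -0.07 turned to 0.16 under spike-in scaling, where 7 rose and 4 fell. Cyp2j4 rose 1.77-fold and the male-specific Cyp2c11 fell 1.70-fold. The glucuronosyltransferase Ugt2b1 fell 2.97-fold, from 31860, 27650, 30550, 26131 and 29018 to 8959, 9642, 9614, 10182 and 10423. Over 27 glutathione transferases and glucuronosyltransferases 4 rose and 12 fell, with a median of -0.18 that turned to 0.05 under spike-in scaling, where 8 rose and 5 fell. Aldh1a1, a retinal dehydrogenase, rose 2.32-fold, the sulfotransferase Sult1c3 rose 4.68-fold, and the steroid hydroxylase Cyp17a1 rose 3.85-fold.

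Amino acid genes were mixed. Tdo2, which opens the tryptophan ring, fell 2.24-fold, with DMSO arrays at 68118 to 71472 and treated arrays at 28555 to 35302. Kmo, the next hydroxylase of the kynurenine path, fell 2.28-fold, and Acmsd, which diverts the path from NAD synthesis, fell from 1993, 2066, 1951, 1790 and 2127 to 817, 784, 758, 910 and 802 (2.44-fold). Over 24 measured genes from tryptophan to NAD 8 rose and 6 fell, with a median of -0.03 (9 and 4, with a median of 0.21, under spike-in scaling). Of 41 genes of the urea cycle and amino acid breakdown 11 rose and 18 fell (14 and 11 under spike-in scaling). Hao2, a peroxisomal hydroxyacid oxidase of that list, fell 4.49-fold, from 3254, 3126, 2956, 2933 and 3237 to 654, 612, 681, 842 and 685. Prodh, which starts proline breakdown, fell 2.88-fold, Uroc1, an enzyme of histidine breakdown, rose 2.47-fold, and the taurine and GABA transporter Slc6a13 rose 3.59-fold.

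A modest rise stood in a list of stress genes that holds known targets of ATF4, the factor of the integrated stress response. Asns, asparagine synthetase, read 7830, 7680, 8250, 8018 and 8818 with DMSO and 11943, 11780, 12724, 12335 and 12359 at 1000 uM, 1.51-fold higher (limma adjusted p = 1.71e-09). Ddit3 (CHOP) rose 1.53-fold, the hormone Fgf21 rose 2.04-fold, and Vldlr, a lipoprotein receptor, rose 1.84-fold. Of 29 measured members 13 rose and 4 fell, with a median of 0.18 that stayed above 0 under each scaling. Atf4 itself stood at 0.07 and did not pass, and the part of ATF4 in these changes was not tested. Of 30 measured cell cycle genes 2 rose and 1 fell, while under spike-in scaling 10 rose and 0 fell. The kinetochore gene Spc24 rose 4.66-fold, with DMSO arrays at 1794 to 2082 and treated arrays at 7852 to 9933, and Cdk2 rose 1.88-fold.

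The dose step was tested directly between 1000 uM and 60 uM, which leaves out the DMSO arrays. Here 2292 genes passed (21.6%): 930 were higher at 1000 uM (8.75% of genes) and 1362 lower (12.8%), against 947 and 385 under spike-in scaling, so that the share higher went from 40.6% to 71.1%. At 60 uM against DMSO, 884 genes passed (8.32%), 484 higher (4.55%) and 400 lower (3.76%). The share higher there was 54.8%, 71.3% under median centring and 91.7% under spike-in scaling. The comparisons with DMSO share the DMSO arrays, so their values are set side by side. Of the 1420 genes higher at 1000 uM, 456 were higher and 1 was lower at 60 uM and 963 did not pass there, and 504 of these 963 passed the direct step upward. Of the 2182 genes lower at 1000 uM, 369 were lower at 60 uM and 1813 did not pass there, and 983 of these passed the direct step downward. The step uses the same 1000 uM and 60 uM arrays that sorted these genes. Passing it in the same direction was therefore favoured in advance and gives no separate support.

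Lipid enzymes had moved at the lower dose too: 15 of 20 genes of peroxisomal and 14 of 17 of mitochondrial beta-oxidation rose and 0 fell at 60 uM. Cyp4a1 stood at 2.62 at 60 uM and 3.46 at 1000 uM, a step of 0.85, and Eci1 at 1.06 and 1.32, a step of 0.26. Ehhadh went from 2.50 to 4.98 and Pdk4 from 1.18 to 3.28, so that their steps were 2.48 and 2.10. Fabp3 rose by 3.07 in the step and Prss23, a serine protease, by 2.78, from 242 ± 74.5 at 60 uM to 1617 ± 211 (SD, n = 5 each). Prss23 did not pass at 60 uM (0.56, limma adjusted p = 0.0717).

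Some genes did not pass at 60 uM and passed the direct step. Fam177a1 had 576, 540, 696, 627 and 557 with DMSO and 2385, 2161, 2113, 2436 and 2559 at 1000 uM. Its 60 uM difference was 0.02 (limma adjusted p = 0.963), and the step was 1.94 (adjusted p = 3.58e-14). Slc25a30, a mitochondrial carrier, stood at -0.00 and then rose by 0.99 in the step. In the step the glutaminyl cyclase Qpct rose by 1.62, Tmem252 by 1.41 and the guidance factor Sema3e by 1.21. The phosphate transporter Slc34a2 had reached 0.56 at 60 uM (adjusted p = 0.00399) and rose by a further 1.78. A 60 uM value that misses the threshold does not show that the gene was unaffected there.

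Among the falls, Cyp7a1 stood at -0.18 at 60 uM (limma adjusted p = 0.641) with a step of -1.59, and Kmo at -0.13 with a step of -1.06. Cxcl1 had a step of -1.50 and Tnfaip3 stood at -0.13 at 60 uM (adjusted p = 0.485). The solute carrier Slc17a2 went from 483, 563, 530, 367 and 411 with DMSO to 132, 60.9, 258, 170 and 58.3 at 1000 uM, with a step of -1.82. Map2k6, a kinase of the p38 path, had a step of -2.01, and its 1000 uM arrays of 276, 75.3, 92.3, 149 and 43.9 overlapped the DMSO arrays of 359, 517, 522, 444 and 269. The genes Sgsm2 and Ttc39a and the chromatin reader Phf19 had steps of -1.26, -1.55 and -1.57, and Fam149a of -1.51. Acmsd, in contrast, had reached -0.89 at 60 uM, and its further step of -0.39 did not pass under spike-in scaling (-0.29, adjusted p = 0.193).

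**Figure D4:**
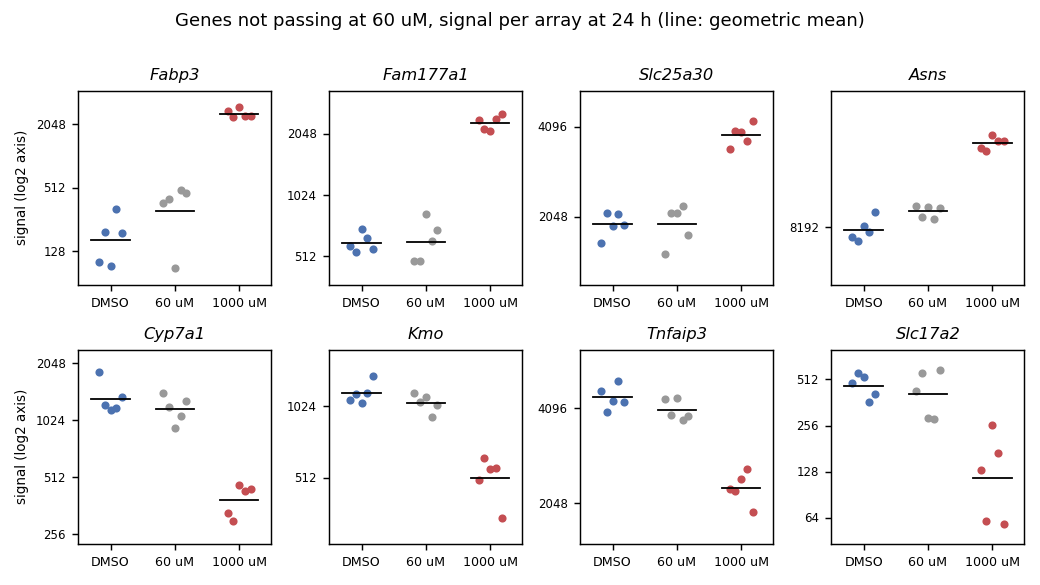
Signal of each array at 24 h on a log2 axis for 8 genes that did not pass at 60 uM, with 5 points a group and a line at the geometric mean. In each panel the 1000 uM arrays lie beyond all 60 uM arrays.

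The early response was then set against the response at 48 h through the difference of the 2 effects. The difference passed for 1149 genes (10.8%), 560 more positive at 48 h (5.27% of genes) and 589 more negative (5.54%). Of the 1420 genes higher at 24 h, 1101 had no passing difference, 206 moved farther up, and 113 moved toward or past 0, with 26 of the 1420 lower than DMSO at 48 h, where 43.9% of all genes passed, 17.1% higher and 26.8% lower. Of the 2182 lower genes, 1796 had no passing difference, 228 moved farther down, 158 moved toward or past 0, and 47 were higher at 48 h. The difference uses the same 24 h arrays that sorted these genes, so movement toward 0 was favoured in advance. A difference that misses the threshold does not show that the effect stayed the same. The passing count fell to 367 under spike-in scaling, with 91 more positive and 276 more negative.

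Some lipid genes moved farther up. Fabp1 gained a further 1.13 (limma adjusted p = 2.22e-11), to 3.43 at 48 h, Acot8 gained 0.79 and Aqp7 0.80. Cyp4a1 instead lost 0.66: its treated mean was 70031 at 24 h and 82169 at 48 h, while its DMSO mean went from 6388 to 11953. Both treated means lay high on the signal scale, and whether that understates the effect was not tested. Fads2, a desaturase, gained 1.66 on a 24 h difference of 0.76, Sult1c3 gained 1.75 on 2.23, and Cyp17a1 gained 1.59 on 1.94. Of 63 oxidative phosphorylation genes 34 had a more positive effect at 48 h and 0 a more negative one, beside 5.27% and 5.54% of all genes, but 0 passed in either direction under spike-in scaling, where the list's median shift was 0.11 in place of 0.19. Prss23 gained 1.50 and Spc24 gained 1.32. Falls that were smaller at 48 h included Kmo, with a gain of 0.69 that did not pass under spike-in scaling (0.61, adjusted p = 0.130), and Sardh, sarcosine dehydrogenase, with -0.82 at 24 h and -0.13 at 48 h. The dehydrogenase Dhrs7l1 stood at -0.77 at 24 h and 0.81 at 48 h.

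Part of the list of ATF4 and stress genes had a lower effect at 48 h. Of 29 members 14 had a more negative effect at 48 h and 2 a more positive one, beside 5.54% and 5.27% of all genes. The median shift was -0.45. Under the 3 other scalings 11 to 15 were more negative and at most 1 more positive. Asns went from 0.59 to -0.37 (difference -0.96, limma adjusted p = 2.82e-09), Fgf21 from 1.03 to 0.23 and the transporter Slc1a4 from 0.74 to 0.11. Mthfd2, a mitochondrial folate enzyme, stood at 0.27 at 24 h (adjusted p = 0.152, passing at 0.50 under spike-in scaling), and at -1.22 at 48 h. Rragd, a GTPase of the mTORC1 pathway, went from 0.85 to -0.62. Of 22 aminoacyl-tRNA synthetase genes 4 rose and 4 fell at 24 h (11 and 0 under spike-in scaling), beside 13.4% and 20.5% of all genes. At 48 h 13 had a more negative effect and 0 a more positive one (11 and 0 under spike-in scaling), beside the same 5.54% and 5.27%. Gars1 went from 0.38 to -0.25 and Yars1 from 0.34 to -0.38. Among plasma proteins, A2m, a broad protease inhibitor, went from -0.36 (-0.13 under spike-in scaling, adjusted p = 0.316) to -1.82 and Apoa5 from -1.29 to -2.25. Slc7a3, a carrier of basic amino acids, had a positive shift of 2.62 from a 24 h difference of -0.88 that did not pass (adjusted p = 0.154). Its signals were low, and its DMSO mean went from 453 ± 67.8 at 24 h to 150 ± 143 at 48 h (SD, n = 5 each). The 1000 uM mean moved less, from 286 ± 145 to 382 ± 50.7. In the DMSO group at 48 h, replicate 1 stood apart, with a residual SD of 0.336 where the arrays compared at 24 h had 0.246 to 0.282. Without that array, the time difference of each of the 22 genes tried in this way passed with the same sign.

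**Figure D5:**
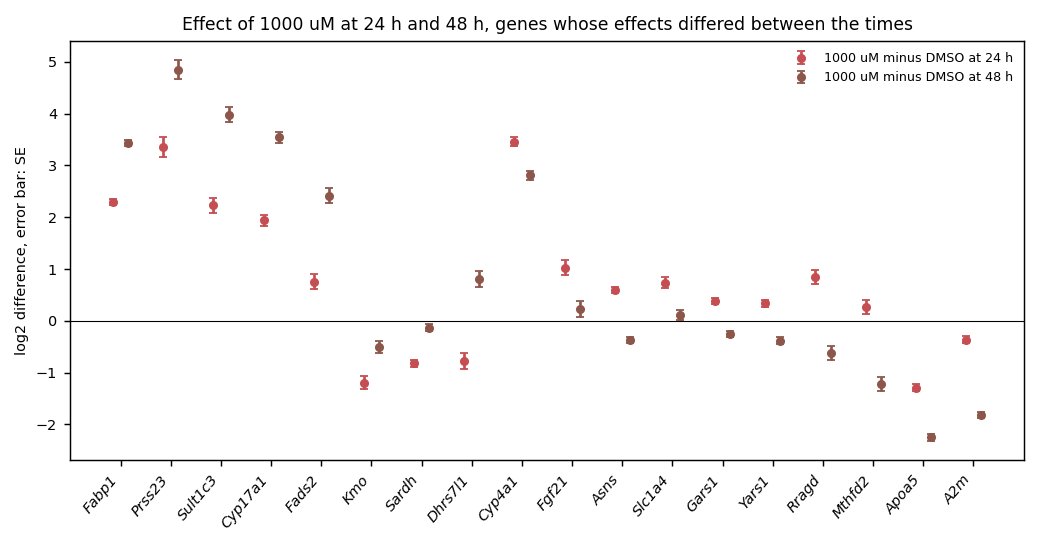
Log2 difference of 1000 uM from DMSO at 24 h and at 48 h with its SE for 18 genes whose effects differed between the times by limma. Fabp1 moves from 2.30 to 3.43, and Asns, Gars1, Yars1 and Rragd cross 0 from above to below.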

How the data were processed

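RNA of each culture was biotin-labelled and read on 1 Affymetrix rat array, per the labels' protocols. The deposited values are linear intensity (signal) per probe set; the submitters' processing notes name MAS5, with no version. The authors' scaling gives every array the same mean after trimming 2% at each end. Signals were taken to log2 with nothing added. Of 31042 probe sets, the 18625 with a mean signal above 255 were kept, which leaves out the lowest 40%. All 30 arrays entered 1 fit with a mean per group (R 4.3.3, limma 3.58.1, intensity trend, Benjamini-Hochberg within each comparison), tested on simulated data. By the platform's annotation 20826 probe sets had 1 symbol, 436 several and 9780 none; each gene is its brightest probe set. The 153 genes named with tests had 44 other tested probe sets, of which 37 gave the same call (10 of them over 1.5-fold apart), 0 the opposite and 7 passed in 1 of the pair. A mean under that of the highest of 3 TrpnX control sets per array counts as under the floor (log2 5.94 for DMSO at 24 h), and a fold against it is a lower bound. Genes were named by rule: the 15 largest rises and falls with non-overlapping arrays, up to 4 members per list, the 8 largest each way for the dose step, for the time difference and for genes passing at 1000 uM but not 60 uM, and known PPAR-alpha targets. Not all of these appear, and Acot8, Acot12, Echs1, Acadvl, Gmnn, Tinagl1, Abcd4, Acox2, Pdp1, Mpc1 and Atf4 were chosen after their values were seen. The comparison, the 65 lists and the rule were chosen with earlier results of these data known. Alternatives covered scaling, filters, variance settings, an added constant, the choice of probe set, leaving out each array and, added later, a block of array sets.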

Additional observations from a re-analysis of the deposited data

Results flagged for a closer look

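A single array stood far from the other 4 in 15 of 306 groups tested with Dixon's ratio (gap over range, 5% critical value 0.71 for 5 arrays), and chance flags about 1 group in 20. Among the DMSO arrays at 24 h, the ratio was 0.763 for the lowest Acot3 array (replicate 5), 0.766 for Ehhadh (replicate 2, lowest), 0.827 for Per2 (replicate 1, highest), 0.756 for Serpine2 (replicate 2, lowest), 0.714 for Flna (replicate 1, lowest), 0.847 for Apoa5 (replicate 1, lowest) and 0.713 for Ier3 (replicate 1, lowest). In the same group it was 0.741 for Egfr (replicate 1, highest), 0.736 for St6gal1 (replicate 5, highest) and 0.811 for Ero1a (replicate 2, highest). Among the 1000 uM arrays it was 0.769 for Ehhadh and 0.829 for Me1 (both replicate 2, lowest), 0.941 for Lpcat3 and 0.812 for Serpine2 (both replicate 5, highest) and 0.834 for Fam149a (replicate 5, lowest). Each of these genes kept its call without the far array.

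The 1000 uM effect differed between 48 h and 24 h, by limma's test of the difference itself, for 57 of the named genes. Only 22 of them were tried under other scalings and without single arrays. Over all tested genes, spike-in scaling cut the passing count from 1149 to 367, with 91 more positive. Whether the small positive shifts below outlast that scaling was mostly not tested, and Ndufs7 did not pass under it. The values that follow are the 48 h effect minus the 24 h effect on the log2 scale. In fatty acid breakdown and transport they were Acot8 0.79, Cyp4a1 -0.66, Hacl1 0.45, Crat 0.43, Acadm 0.52, Acadvl 0.37, Hadha 0.26, Echs1 0.48, Cpt1b 0.44 and Fabp1 1.13. In lipolysis, desaturation, glycerol and fuel use they were Mgll 0.44, Angptl4 -0.31, Mpc1 0.23, Mpc2 0.23, Idh2 0.38, Aqp7 0.80, Ndufs7 0.25, Acat1 0.26, Fads1 0.67, Fads2 1.66 and Gys2 -0.35. In drug, steroid and bile metabolism and transport they were Abcb4 -0.41, Slc17a2 1.56, Cyp2c11 -0.97, Sult1c3 1.75, Cyp17a1 1.59 and Dhrs7l1 1.58. In amino acid handling and the stress response they were Kmo 0.69, Tdo2 0.31, Uroc1 0.74, Sardh 0.69, Slc6a13 0.75, Slc7a3 2.62, Asns -0.96, Fgf21 -0.80, Gars1 -0.64, Yars1 -0.72, Slc1a4 -0.63, Mthfd2 -1.49 and Rragd -1.47. In matrix, cytoskeleton and secreted proteins they were Tgm2 -0.34, Serpine2 -0.76, Vim -0.63, S100a13 -0.47, C1s -0.41, Crp 0.47, Lbp -0.53, Apoa5 -0.95, A2m -1.45, Prss23 1.50 and Npy -1.15. The rest were Steap4 -0.53, B4galt5 -0.66, Hlf 0.46, Spc24 1.32, Lurap1l -0.32 and Hsp90b1 -0.19.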

How the results depend on the processing

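Of 3046 alternative values for the 153 genes tested at 1000 uM against DMSO, 3030 kept their direction and side of the threshold, 14 lost their call, 2 gained it and 0 reversed. For the dose step 591 of 592 values of 30 genes and for the time difference 657 of 658 values of 22 genes kept both. The other named genes with a passing time difference were not tried under the alternatives. Statements on named genes below leave those time differences out. Scaling to the bacterial controls moved the counts by over 1.5 times: 2854 genes higher and 597 lower at 1000 uM, 557 genes at 60 uM (46 lower), 1332 for the step (385 lower) and 367 for the time difference (91 more positive and 276 more negative). Median centring moved the genes lower at 60 uM from 400 to 245. Spike-in scaling adds the same shift to every gene of an array. Among the genes tried, Cyp4f1, Echs1, Epcam, A2m, Pdp1, Mpc1, Acmsd (step) and Kmo (time) lost their calls under spike-in scaling and Mthfd2 gained one. Ndufs7 was not tried for the time difference, but 0 of 63 genes of its oxidative phosphorylation list passed that difference under spike-in scaling. Leaving out 1 array at a time gave 3349 to 3451 genes at 1000 uM (1335 to 1368 higher, 2004 to 2105 lower), 742 to 808 at 60 uM (415 to 459 higher, 323 to 364 lower), 2053 to 2161 for the step (843 to 885 higher, 1208 to 1299 lower) and 993 to 1133 for the time difference (476 to 550 more positive, 506 to 599 more negative). Gmnn was the 1 named gene that lost its call without single arrays, with adjusted p from 0.0625 to 0.132 in those 6 fits, and also with no filter (0.0663) or no intensity trend (0.0607). Every other count under the other scalings, filters, variance settings, an added constant of 64 and the mean of a gene's probe sets was within 1.5 times of the reported one. The labels give no replicate numbers, but the titles carry running numbers in which each run of 6 holds every group once; whether such a run shared a day or plate is not stated. Chosen after seeing the data, a fit with these 5 sets as a replicate block called 3686 genes at 1000 uM, 924 at 60 uM, 2374 for the step and 1216 for the time difference, and changed the call of 0 named genes. Residuals of arrays of 1 set and different groups correlated at -0.05 to 0.11 (median 0.01), with 1 of 75 pairs above 0.1, and 11 of 30 arrays were closest on average to their own set. Genes near the control floor, such as Acot1 and Fabp3 with DMSO, have uncertain low values.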
